A study of Homo sapiens with 12 samples.

Results

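The transcripts of 10 feedback genes of the ERK pathway were followed across SW872 cells, a human liposarcoma line, that carried an oncogenic fusion protein and a short hairpin. The genes are the phosphatases DUSP4, DUSP5 and DUSP6, the Sprouty genes SPRY1, SPRY2 and SPRY4, the Sprouty-related genes SPRED1 and SPRED2, and the ETS transcription factors ETV4 and ETV5. They were chosen by symbol from the 58735 gene rows of the count table, and all 10 were among the 18415 genes with enough counts to be tested. The rule names symbols and uses no measured value, but earlier results of these data were known when the genes were chosen.

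RNA was sequenced from 12 libraries in 6 groups of 2. Every library came from SW872 cells that stably expressed either TAZ-CAMTA1 (TC) or YAP-TFE3 (YT), the fusion proteins that drive epithelioid hemangioendothelioma, a vascular sarcoma. In each of these lines the cells carried a non-targeting hairpin (shNT), a hairpin against YEATS2 (shYEATS2) or a hairpin against ZZZ3 (shZZZ3), genes whose products both belong to ATAC, a complex that acetylates histones. The 6 groups were thus TC shNT, TC shYEATS2, TC shZZZ3, YT shNT, YT shYEATS2 and YT shZZZ3, and every group, the controls included, carried a fusion and a hairpin. Per the study's methods the fusions were brought in by retrovirus and the cells were selected as pools with G418, not as clones. The liposarcoma line is not an endothelial cell, and the sources used here do not give which hairpin of the study's set was used for each gene or the cell density at collection of these libraries. The study describes the 2 libraries of a group as biological duplicates, and its sequencing replicates in general as separate transductions of the constructs. Whether the hairpins were also introduced separately for each library is not stated, and the p values measure the spread between these libraries.

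Growth factor receptors activate RAS, which starts a kinase relay from RAF through MEK to ERK. Active ERK enters the nucleus and switches on genes whose products turn the relay down again, so that the RNA level of these genes is widely read as an output of the pathway. ERK activity itself was not measured in these libraries. DUSP4 and DUSP5 are nuclear phosphatases and DUSP6 is a cytoplasmic one, and each removes the activating phosphates from ERK. Sprouty proteins act below receptors and interfere with the step from receptor to RAS and RAF. SPRED proteins bring the RAS-inactivating protein neurofibromin to the membrane. ETV4 and ETV5 belong to the PEA3 group of ETS factors, and they carry the signal on to further genes rather than dampening it.

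In genome build hg38, with positions from GENCODE release 44, DUSP4 (ENSG00000120875) lies at chr8:29333064-29350684, DUSP5 (ENSG00000138166) at chr10:110497907-110511533 and DUSP6 (ENSG00000139318) at chr12:89347235-89352501. SPRY1 (ENSG00000164056) lies at chr4:123396795-123403760, SPRY2 (ENSG00000136158) at chr13:80335976-80341126 and SPRY4 (ENSG00000187678) at chr5:142310427-142326455. SPRED1 (ENSG00000166068) lies at chr15:38252836-38357249 and SPRED2 (ENSG00000198369) at chr2:65310851-65432637. ETV4 (ENSG00000175832) lies at chr17:43527844-43579620 and ETV5 (ENSG00000244405) at chr3:186046314-186110318. Part of the exon bases of DUSP6 (28.6%) is shared with a long non-coding RNA on the opposite strand, which had a mean of 14.75 counts per library against 2743 for DUSP6. ETV4 shared 1.94% of its exon bases with DHX8 on the opposite strand and ETV5 shared 2.84% with DGKG on the same strand.

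Total counts ranged from 17451893 to 29294805 per library, and replicate 1 was the deeper library in 6 of 6 groups. YEATS2 fell in its knock-downs, from 113 and 123 CPM (counts scaled to library size after TMM normalisation) in TC shNT to 45.5 and 35.1 in TC shYEATS2 and from 115 and 117 in YT shNT to 33.9 and 38.5 in YT shYEATS2. ZZZ3 was at 25.6 and 60.4 CPM in TC shNT and at 21.9 and 22.7 in TC shZZZ3 (adjusted p = 0.45), so its knock-down in the TC line did not pass the test at the RNA level. The study reports ZZZ3 knock-down in SW872 cells with TAZ-CAMTA1 by western blot, which measures protein. In the YT line ZZZ3 fell from 71.2 and 49.1 CPM to 12.6 and 29.6 in YT shZZZ3 (adjusted p = 0.0453), and it stood at 31.4 and 30.7 in YT shYEATS2 (adjusted p = 0.13). The libraries of TC shNT and of YT shZZZ3 stood apart from each other within their groups: the difference between their replicates correlated across 13232 genes with exon GC content at r = 0.79 and r = 0.70, against values between -0.37 and 0.28 in the other 4 groups. SPRED1 has the lowest GC content of the 10 genes (36.3%) and ETV4 the highest (60.6%), and a fit with the GC trend of each library removed is given beside the results it changes. Of 5 mesenchymal markers VIM and FN1 were abundant in every library, and the 5 summed to 7107 to 11265 CPM with shNT or shYEATS2 and to 4447 to 5790 CPM with shZZZ3, in which FN1 fell in both lines. In YT shZZZ3 VIM and CDH2 rose while FN1 fell. PTPRC, the general marker of blood cells, did not exceed 3 counts in any library.

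SPRY1 and SPRY2 rose in the YEATS2 knock-down of the YT line. In the edgeR fit of all 6 groups without GC correction, DUSP6 had no adjusted p under 0.05 in the 11 comparisons. It passed in some alternative fits. The 250 bases before the start site of each of these genes are shown so that the regulatory sequence can be read beside the RNA. They are RefSeq windows (GRCh38.p14), 5′ to 3′ in the direction of the gene, and the capitals mark GGAA on either strand, the core that ETS factors bind. Where a gene has several windows the most upstream is shown.
SPRY1, chr4:123396545-123396794, plus strand: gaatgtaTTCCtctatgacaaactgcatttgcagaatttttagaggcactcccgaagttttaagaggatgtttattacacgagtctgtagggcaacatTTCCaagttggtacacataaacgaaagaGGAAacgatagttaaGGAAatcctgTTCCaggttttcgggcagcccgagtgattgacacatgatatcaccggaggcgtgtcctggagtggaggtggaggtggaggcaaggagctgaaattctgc
SPRY2, chr13:80341127-80341376, minus strand: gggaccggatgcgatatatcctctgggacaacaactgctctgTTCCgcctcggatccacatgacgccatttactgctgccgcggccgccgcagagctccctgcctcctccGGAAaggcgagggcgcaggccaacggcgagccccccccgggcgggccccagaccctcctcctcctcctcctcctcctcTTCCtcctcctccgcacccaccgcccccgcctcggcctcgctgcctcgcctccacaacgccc
DUSP6, chr12:89352502-89352751, minus strand: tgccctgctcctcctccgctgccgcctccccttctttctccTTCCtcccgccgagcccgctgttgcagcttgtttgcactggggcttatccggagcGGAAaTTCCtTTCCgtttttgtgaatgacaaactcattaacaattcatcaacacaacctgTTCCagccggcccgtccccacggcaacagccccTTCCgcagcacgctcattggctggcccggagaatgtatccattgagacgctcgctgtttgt

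The window of SPRY1 held 5 GGAA cores, that of SPRY2 held 3 and that of DUSP6 held 6, against a median of 3 over 35116 RefSeq windows, of which 92.7% held at least 1. Longer motifs were also searched on both strands in the 10 windows found for 6 of the genes (DUSP6, SPRY1, SPRY2, SPRY4, SPRED1 and SPRED2). The ETS motif CCGGAAG was in 1 of these windows, a second start site of SPRY1, at -67 to -61, and in 8.52% of all windows. The TEAD motif CATTCC (11.9% of all windows), the AP-1 motif TGANTCA (6.57%), the E-box CACGTG (6.35%) and the CRE motif TGACGTC (3.12%) were in 0 of the 10 windows. TTCC within CATTCC is also a GGAA core on the other strand. These are matches of letters and not measured binding.

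Per kilobase of exon, DUSP4 and DUSP6 had the highest mean levels of the 10 transcripts in both control groups and SPRY1 the lowest, although in TC shNT ETV4 could not be separated from them. In YT shNT the mean level was 39.9 ± 2.98 CPM per kb (SD, n = 2) for DUSP4 and 38.3 ± 2.16 for DUSP6, neighbours that did not differ beyond their spread. ETV4 and ETV5 followed in YT shNT with 22.3 ± 2.30 and 21.3 ± 1.48, and DUSP5 with 18.8 ± 2.58. SPRED1, SPRY4, SPRED2 and SPRY2 lay between 13.6 and 10.4 CPM per kb, and SPRY1 stood at 2.35 ± 0.191. In TC shNT the means were 26.1 ± 1.19 for DUSP4, 25.7 ± 4.55 for DUSP6 and 21.9 ± 7.10 for ETV4, which did not differ beyond their spread, and ETV4 (26.9) lay above DUSP6 (22.5) in replicate 1. SPRY1 was again the lowest with 3.41 ± 0.616. In YT shYEATS2 the order changed near the top, where DUSP4 (58.3 ± 3.38) and ETV4 (53.1 ± 3.02) stood above DUSP6 (38.4 ± 3.51).

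**Figure D1:**
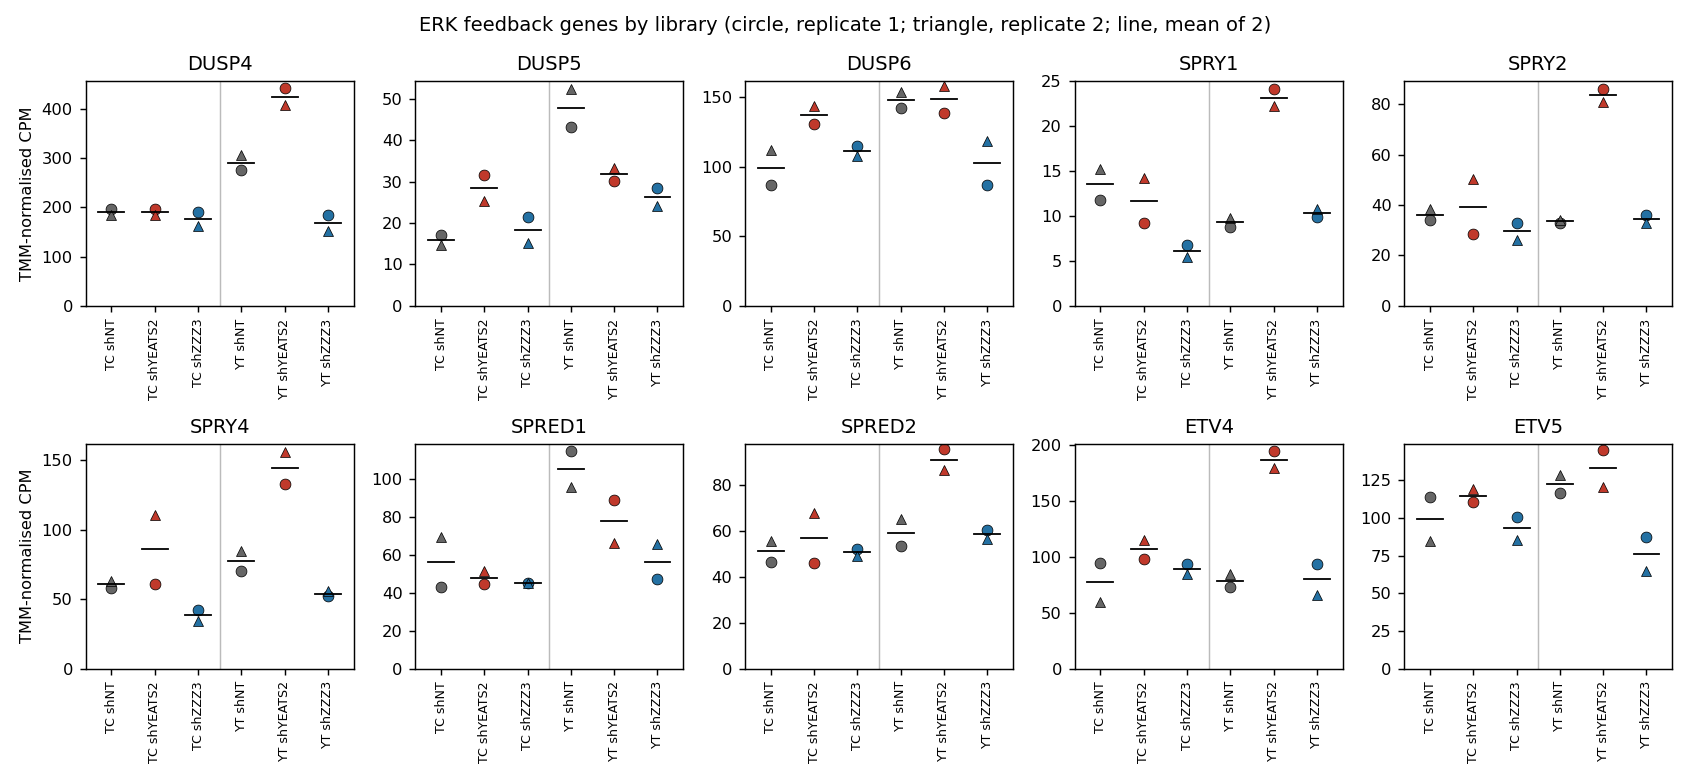
TMM-normalised CPM (counts scaled to library size, vertical axis from 0) of each of the 10 genes in the 12 libraries, by group on the horizontal axis; circles are replicate 1, triangles replicate 2 and lines the mean of the 2 libraries. SPRY1, SPRY2, SPRY4, SPRED2, ETV4 and DUSP4 are highest in both YT shYEATS2 libraries, DUSP5 and SPRED1 in both YT shNT libraries.

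Knock-down of YEATS2 in the YT line was the comparison in which most of these genes rose against shNT. The 3 Sprouty genes, ETV4 and DUSP4 rose, by 1.46-fold for DUSP4 up to 2.49-fold for SPRY2, and no member was called lower. DUSP5 and SPRED1 had both knock-down libraries below both controls, short of the threshold. The 5 of 10 genes called higher stand against 9.61% of all tested genes called higher in this comparison, and 20.7% called in either direction. In such bulk libraries fewer cells with a transcript and less of it per cell cannot be told apart. A gene is called where its adjusted p, from edgeR's quasi-likelihood test with Benjamini-Hochberg adjustment over the 18415 genes, is under 0.05. The median log2 fold change was 0.58 over the 10 genes and -0.01 over all genes tested. Together the 10 transcripts summed to 929 and 1014 CPM in YT shNT and to 1378 and 1309 CPM in YT shYEATS2. From a pathway analysis (iPathwayGuide) the study reports that MAPK signaling went down with YEATS2 knock-down in SW872 cells with YAP-TFE3. That result rests on a whole pathway rather than on these 10 transcripts, and neither measures ERK activity.

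SPRY2 went from 32.7 and 34.2 CPM in YT shNT to 86.2 and 80.8 CPM in YT shYEATS2. The pairs were far apart relative to their spread, and the log2 ratio of the groups came to 1.32 ± 0.25 (SE; adjusted p = 0.00379). SPRY1, the scarcest member, went from 8.76 and 9.83 CPM to 24.1 and 22.3, a log2 fold change of 1.31 ± 0.25 (adjusted p = 0.00442). SPRY4 went from 70.3 and 84.4 CPM to 133 and 156, a log2 fold change of 0.90 ± 0.25 (adjusted p = 0.0286). In all 3 Sprouty genes both knock-down libraries lay above both control libraries. Each fit that left out 1 library of this comparison called fewer genes over all, so a lost call is not particular to a member. SPRY2 was called with any of the 4 libraries of the comparison left out, SPRY1 in 3 of 4 such fits, losing its call without YT shNT replicate 1 (adjusted p = 0.0621), and SPRY4 in 0 of 4, with adjusted p from 0.0779 to 0.198.

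ETV4 went from 72.65 and 84.1 CPM in YT shNT to 194 and 179 CPM in YT shYEATS2, a log2 fold change of 1.25 ± 0.24 (adjusted p = 0.00439). The pairs did not overlap, and without YT shNT replicate 1 the adjusted p was 0.0517. ETV5, the closest relative of ETV4 in the list, was at 117 and 129 CPM in the controls and at 145 and 121 in the knock-down. The pairs of ETV5 overlapped, with a log2 fold change of 0.11 ± 0.21 (adjusted p = 0.725).

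The 3 phosphatases did not move together in YT shYEATS2. DUSP4 went from 275 and 306 CPM to 442 and 407, a log2 fold change of 0.55 ± 0.17 (adjusted p = 0.0423), with no overlap of the pairs. Its call was lost with any of the 4 libraries left out (adjusted p from 0.104 to 0.23) and without the filter on low counts (adjusted p = 0.0663). DUSP5 was at 43.1 and 52.4 CPM in the controls and at 30.2 and 33.4 in the knock-down, a log2 change of -0.59 ± 0.22 (adjusted p = 0.0877). It passed only after GC correction (-0.71, adjusted p = 0.00608) and in a fit of these 4 libraries alone (adjusted p = 0.00285). Those fits called 5823 and 8784 genes over all, against 3821 in the fit of all 6 groups. DUSP6 was at 142 and 154 CPM and at 139 and 158, overlapping pairs with a log2 fold change of 0.00 ± 0.20 (adjusted p = 0.991).

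The 2 SPRED genes also differed from each other in sign. SPRED2 was at 53.2 and 64.9 CPM in YT shNT and at 95.3 and 86.4 in YT shYEATS2, without overlap, and its log2 fold change of 0.62 ± 0.21 just missed the threshold (adjusted p = 0.0574). It passed in DESeq2 (0.64, adjusted p = 0.0317) and after GC correction (adjusted p = 0.0378). SPRED1 was at 115 and 95.8 CPM and at 89.0 and 66.3, a log2 fold change of -0.44 ± 0.26 (adjusted p = 0.243) that was 0.03 after GC correction. Of the 10 genes, 6 had both knock-down libraries above both controls, against 36.4% of all tested genes, and 2 had both below, against 37.8%. Of 5 mesenchymal markers 2 were called higher and 0 lower, with log2 fold changes from -0.67 to 2.99. Among marker genes of other cell types, CD14 rose and ITGAM fell of the 3 haematopoietic markers tested. The full list of 5 summed to 1.84 to 2.06 CPM in YT shNT and 4.41 to 4.85 CPM in YT shYEATS2, while PTPRC stayed at 3 counts or below. The part of these markers in the changes above was not tested.

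**Figure D2:**
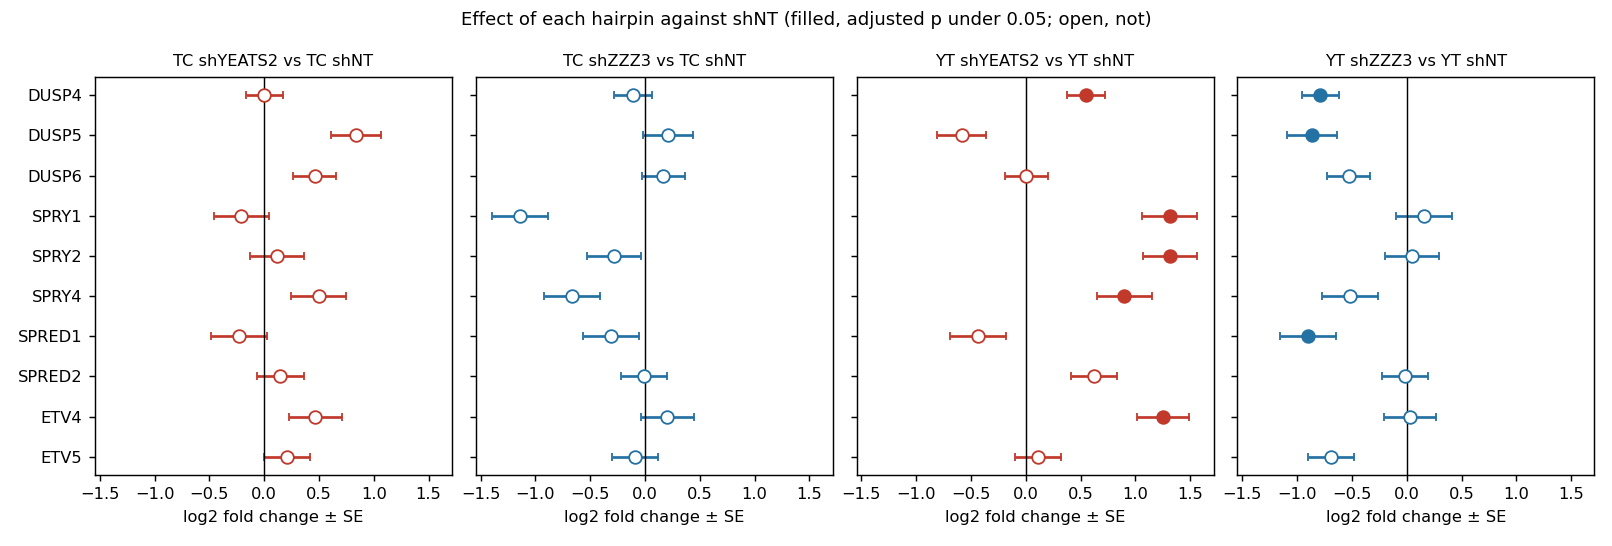
Log2 fold change (horizontal axis) with its standard error for the 10 genes in the 4 knock-downs against shNT of the same line; filled points passed an adjusted p of 0.05 in edgeR and open points did not. In YT shYEATS2 the 3 Sprouty genes, ETV4 and DUSP4 are filled on the right, in YT shZZZ3 DUSP4, DUSP5 and SPRED1 are filled on the left, and no point is filled in the TC panels.

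Knock-down of ZZZ3 in the YT line gave another picture: DUSP4, DUSP5 and SPRED1 fell and no member was called higher. The 3 of 10 genes called lower stand against 5.62% of all tested genes called lower and 10% called in either direction. The median log2 fold change was -0.52 over the 10 genes and 0.01 over all genes tested. Both knock-down libraries lay below both controls for 6 of 10 genes, against 27.1% of all tested genes, and above them for 1, against 25.6%. The summed level of the 10 genes was 686 and 645 CPM in YT shZZZ3, near the 702 and 696 CPM of TC shNT.

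DUSP4 went from 275 and 306 CPM in YT shNT to 185 and 152 in YT shZZZ3, a log2 fold change of -0.79 ± 0.17 (adjusted p = 0.0144). DUSP5 went from 43.1 and 52.4 CPM to 28.4 and 24.02, a log2 fold change of -0.86 ± 0.22 (adjusted p = 0.0334). Both phosphatases were lower in each knock-down library than in each control library. DUSP6 was at 86.4 and 118 CPM in YT shZZZ3, also below both controls, but at -0.53 ± 0.20 on the log2 scale it missed the threshold (adjusted p = 0.121) and passed narrowly after GC correction (adjusted p = 0.0466).

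SPRED1 went from 115 and 95.8 CPM to 47.1 and 65.5, a log2 fold change of -0.90 ± 0.26 (adjusted p = 0.0474). ETV5 was at 87.3 and 64.6 CPM against 117 and 129 in the controls, without overlap, and its log2 fold change of -0.69 ± 0.21 just missed the threshold (adjusted p = 0.061), passing in DESeq2 (adjusted p = 0.0271) and after GC correction (adjusted p = 0.0104). SPRY1 (9.93 and 10.8 CPM), SPRY2 (36.2 and 32.9 CPM), SPRED2 (60.4 and 56.2 CPM) and ETV4 (93.9 and 66.0 CPM) had log2 fold changes between -0.02 and 0.16, with adjusted p of 0.756 or more. SPRY4 was at 52.4 and 55.6 CPM, below both controls, with a log2 fold change of -0.52 ± 0.25 (adjusted p = 0.237).

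The calls in YT shZZZ3 were less secure than those of SPRY1, SPRY2 and ETV4 in YT shYEATS2. With 1 library left out at a time, the log2 fold changes kept their sign. They ranged from -0.89 to -0.66 for DUSP4, from -0.98 to -0.69 for DUSP5 and from -1.16 to -0.63 for SPRED1. In a fit of these 4 libraries alone no member was called, with adjusted p of 0.0755 for DUSP4, 0.069 for DUSP5 and 0.0666 for SPRED1. That fit called 1400 genes over all, against 1846 in the fit of all 6 groups. Of 5 endothelial markers, PECAM1 and CDH5 rose in YT shZZZ3, and the 5 summed to 154 CPM in both knock-down libraries against 49.4 and 51.9 CPM in YT shNT, with none of the 5 at 0. The part of this shift in the lower phosphatases was not tested.

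In the TC line no member passed the threshold for either hairpin in the edgeR fit of all 6 groups, though SPRY1 with shZZZ3 did in several alternative fits. For YEATS2, 0 of 10 were called, with 2 at an unadjusted p under 0.05 and 0 called by DESeq2, where 0.0434% of all tested genes were called in edgeR. DESeq2 called 117 genes over all, against 8 in edgeR. The share of all genes at an unadjusted p under 0.05 is not given for any comparison. Both knock-down libraries lay above both controls for 3 of 10, against 11.4% of all tested genes. For ZZZ3, 0 of 10 were called in edgeR, against 1.53% of all tested genes, with 2 at an unadjusted p under 0.05. DESeq2 called 1 of 10, and 532 genes over all against 281 in edgeR. Both knock-down libraries lay below both controls for 3 of 10, the Sprouty genes, against 16.6% of all tested genes.

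The DUSP5 values came closest in TC shYEATS2, with 17.2 and 14.6 CPM in TC shNT and 31.5 and 25.3 CPM in TC shYEATS2. These pairs did not overlap, but 0.84 ± 0.23 log2 units did not reach the threshold (adjusted p = 0.337). DUSP6 was at 86.8 and 112 CPM in TC shNT and at 130 and 143 in TC shYEATS2, and ETV4 at 94.6 and 59.3 and at 98.3 and 115. Both knock-down libraries were higher for these genes, by 0.46 ± 0.20 and 0.47 ± 0.24 log2 units, short of the threshold (adjusted p = 0.904 and 1). DUSP4 was level, at 196 and 184 CPM against 196 and 185.

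The replicates of TC shYEATS2 disagreed on the Sprouty genes. SPRY4 was at 61.0 CPM in replicate 1 and at 111 CPM in replicate 2, and SPRY2 at 28.4 and 50.2 CPM, so that replicate 1 lay within or below the control range (58.3 to 63.3 CPM for SPRY4 and 33.9 to 38.3 CPM for SPRY2) and replicate 2 above it. SPRY1 was at 9.20 and 14.2 CPM. The summed level of the 5 endothelial markers was 59.0 CPM in replicate 1 and 269 CPM in replicate 2, and KDR alone was at 12.8 and 133 CPM. Whether this bears on the Sprouty genes was not tested.

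SPRY1 was the member that came nearest to a call in TC shZZZ3. It stood at 11.8 and 15.2 CPM in TC shNT and at 6.74 and 5.40 CPM in TC shZZZ3, without overlap, with a log2 fold change of -1.14 ± 0.26 (adjusted p = 0.0571). SPRY1 was called by DESeq2 (-1.15, adjusted p = 0.00344), without the filter on low counts (adjusted p = 0.00647) and after GC correction (adjusted p = 0.00875). SPRY4 was at 42.4 and 34.2 CPM, below both controls, with a log2 fold change of -0.67 ± 0.25 (adjusted p = 0.341), and SPRY2 was at 32.9 and 26.3 CPM. The other 7 members had log2 fold changes between -0.31 and 0.21.

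With the control hairpin, the YT line had higher DUSP5, DUSP4 and SPRED1 than the TC line. DUSP5 was at 17.2 and 14.6 CPM in TC shNT and at 43.1 and 52.4 CPM in YT shNT, 2.99-fold higher, with a log2 fold change of 1.58 ± 0.23 (adjusted p = 0.00177). DUSP5 was called with any of the 4 libraries left out. DUSP4 was at 196 and 184 CPM against 275 and 306, a log2 fold change of 0.61 ± 0.17 (adjusted p = 0.0464). SPRED1 was at 42.9 and 69.4 CPM against 115 and 95.8, a log2 fold change of 0.91 ± 0.26 (adjusted p = 0.0493). These 3 of 10 stand against 5.58% of all tested genes called higher and 9.23% in either direction.

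The calls of DUSP4 and SPRED1 between the lines were fragile, at 0 of 4 and 1 of 4 fits with a library left out. For SPRED1 the log2 fold change became 0.57 when replicate 1 of TC shNT was left out and 1.26 when replicate 2 was, the replicates that differed along GC content, and 0.55 after GC correction (adjusted p = 0.0159). In a fit of these 4 libraries alone, DUSP4 (adjusted p = 0.19) and SPRED1 (adjusted p = 0.145) were not called. DUSP6 was at 86.8 and 112 CPM in TC shNT and at 142 and 154 in YT shNT, without overlap, and 0.57 ± 0.20 log2 units fell short of the threshold (adjusted p = 0.0975). SPRY2, ETV4, ETV5, SPRED2 and SPRY4 had log2 fold changes between -0.11 and 0.35, and SPRY1 had -0.53 ± 0.26 (adjusted p = 0.227), which passed after GC correction (-0.65, adjusted p = 0.0409). Of the 10 genes, 6 were higher in both YT libraries, against 26% of all tested genes, and 1 was lower in both, against 25.3%. For other RNA sequencing the study's methods name sub-confluent collection for lines with CAMTA1 and confluent collection for the rest. The density of these libraries is not given, and its part in the differences between the lines was not tested. Among marker genes, TEK of 5 endothelial markers was lower in YT shNT and ITGAM of 3 tested haematopoietic markers was higher. Of 5 mesenchymal markers VIM (-0.93 ± 0.23) and COL1A2 (-3.21 ± 0.19) were lower and CDH2 was higher. The endothelial list summed to 84.5 and 101 CPM in TC shNT and to 49.4 and 51.9 in YT shNT, and the part of these markers was not tested.

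**Figure D3:**
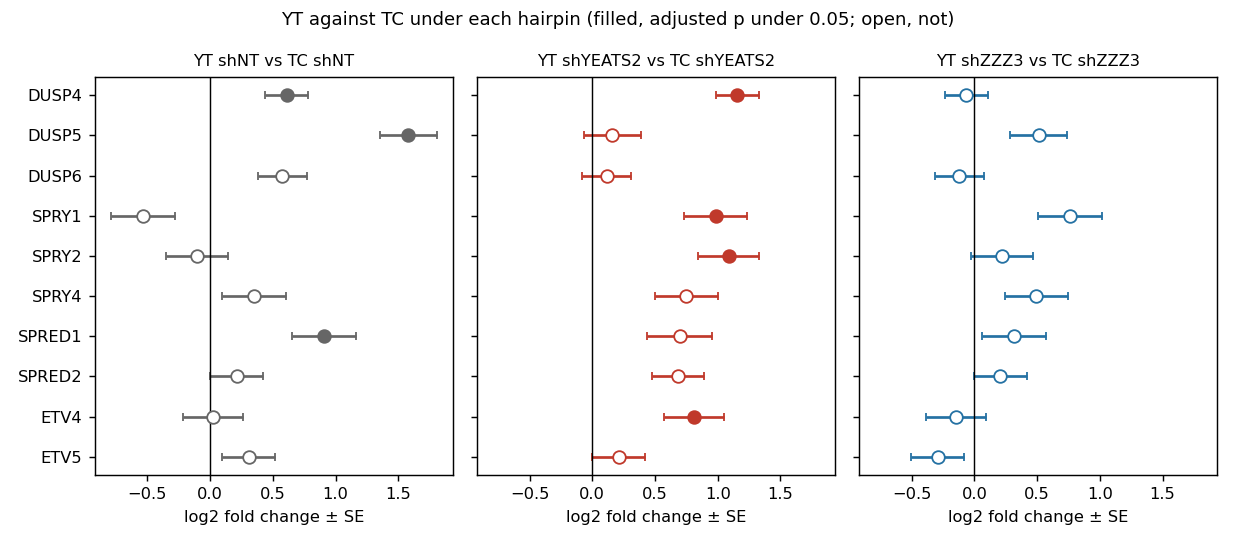
Log2 fold change (horizontal axis) with its standard error for the 10 genes in YT against TC cells that carried the same hairpin; filled points passed an adjusted p of 0.05 in edgeR. DUSP4, DUSP5 and SPRED1 are filled with shNT, DUSP4, SPRY1, SPRY2 and ETV4 with shYEATS2, and no point is filled with shZZZ3.

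The lines were also compared under each of the other hairpins. Under shYEATS2, DUSP4 (log2 fold change 1.16 ± 0.17, adjusted p = 0.00114), SPRY2 (1.09 ± 0.24, adjusted p = 0.0144), SPRY1 (0.99 ± 0.25, adjusted p = 0.0256) and ETV4 (0.81 ± 0.24, adjusted p = 0.0499) were higher in YT. These 4 of 10 stand against 5.65% of all tested genes called higher and 12.2% in either direction. DUSP5, 2.99-fold apart under shNT, had a log2 fold change of 0.16 ± 0.23 under shYEATS2 (adjusted p = 0.717), with 31.5 and 25.3 CPM in TC and 30.2 and 33.4 CPM in YT. SPRY4 (0.75 ± 0.25), SPRED1 (0.70 ± 0.26) and SPRED2 (0.68 ± 0.21) missed the threshold and passed after GC correction, with adjusted p of 0.0391, 0.00293 and 0.0219. That correction raised the calls over all genes from 2242 to 4504. Both YT libraries were the higher for 8 of 10 genes, against 28.7% of all tested genes. Of the 4 calls, only that of DUSP4 held with any of the 4 libraries left out, SPRY1 and SPRY2 were called in 1 of 4 such fits and ETV4 in 0 of 4. Under shZZZ3, 0 of 10 were called in edgeR, against 2.62% of all tested genes, with 2 at an unadjusted p under 0.05. DESeq2 also called 0 of 10, and 789 genes over all against 482 in edgeR. Of the 10 genes, 5 were higher in both YT libraries, against 19.3% of all tested genes.

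Whether the hairpins acted differently in the lines was tested directly, as the knock-down effect in YT minus that in TC. For YEATS2, DUSP5 and SPRY1 passed this test, 2 of 10 against 9.37% of all tested genes in either direction (3.53% higher in YT and 5.84% lower). The effect on DUSP5 was 1.42 log2 units lower in YT (-1.42 ± 0.32, adjusted p = 0.0172), being -0.59 in YT and 0.84 in TC. The effect on SPRY1 was 1.52 ± 0.36 higher in YT (adjusted p = 0.0213), being 1.31 in YT and -0.21 in TC. SPRY2 just missed the threshold (1.20 ± 0.35, adjusted p = 0.0541) and was called by DESeq2 (adjusted p = 0.0164) and after GC correction (adjusted p = 0.0136). For SPRY4 (0.40 ± 0.36, adjusted p = 0.54), ETV4 (0.78 ± 0.34, adjusted p = 0.184) and DUSP4 (0.54 ± 0.24, adjusted p = 0.194) a difference between the lines was not shown in this fit, and after GC correction that of DUSP4 passed (0.56, adjusted p = 0.0298).

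For ZZZ3 the same test called 0 of 10 in edgeR, against 4.32% of all tested genes, with 4 at an unadjusted p under 0.05. DESeq2 called 2 of 10, and 1274 genes over all against 795 in edgeR. SPRY1 came nearest (1.30 ± 0.36, adjusted p = 0.0728), with an effect of 0.16 in YT and -1.14 in TC, and DUSP5 next (-1.07 ± 0.32, adjusted p = 0.0946), with -0.86 in YT and 0.21 in TC. These were the 2 genes called by DESeq2, with adjusted p of 0.0186 and 0.0348. After GC correction both passed, as did DUSP4 (-0.61, adjusted p = 0.0335).

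The hairpins were also set against each other within each line, a comparison that uses no shNT library. In YT, all 10 genes were higher in both shYEATS2 libraries than in both shZZZ3 libraries, against 23.4% of all tested genes. The nearest libraries were close for SPRED1 (66.3 against 65.5 CPM) and DUSP5 (30.2 against 28.4 CPM). Of the 10 genes, 6 were called, against 3.42% of all tested genes called higher and 7.21% in either direction. DUSP4 (442 and 407 CPM against 185 and 152) had a log2 fold change of 1.34 ± 0.17 (adjusted p = 0.00106). SPRY4 (133 and 156 CPM against 52.4 and 55.6) had 1.42 ± 0.25 (adjusted p = 0.00678). SPRY2 (1.27 ± 0.24), ETV4 (1.22 ± 0.24), SPRY1 (1.15 ± 0.25) and ETV5 (0.81 ± 0.21) followed, with adjusted p of 0.00989, 0.0109, 0.0182 and 0.0404.

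DUSP5, DUSP6, SPRED1 and SPRED2 did not pass in this comparison, at 0.28 to 0.64 log2 units and adjusted p from 0.0987 to 0.535. After GC correction SPRED1 (0.73, adjusted p = 0.00456) and DUSP6 (0.57, adjusted p = 0.0339) did. All 5 endothelial markers had negative log2 fold changes in the same comparison, PECAM1 and CDH5 being called, with sums of 43.8 and 42.8 CPM in YT shYEATS2 against 154 in both YT shZZZ3 libraries. CDH1 of 5 epithelial and CDH2 of 5 mesenchymal markers were called higher, and the part of these markers was not tested. The call of DUSP4 held with any of the 4 libraries left out, that of SPRY4 in 3 of 4 fits, those of SPRY2, ETV4 and ETV5 in 1 of 4 and that of SPRY1 in 0 of 4. In TC, 0 of 10 were called between the hairpins in edgeR, against 1.2% of all tested genes, with 3 at an unadjusted p under 0.05. DESeq2 called 2 of 10, and 492 genes over all against 221 in edgeR. In this comparison 6 of 10 were higher in both shYEATS2 libraries, against 21.9% of all tested genes. SPRY4 was nearest, with 61.0 and 111 CPM against 42.4 and 34.2 and a log2 fold change of 1.16 ± 0.25 (adjusted p = 0.0567 in edgeR and 0.00281 in DESeq2). SPRY1 was the other gene called by DESeq2 (0.94, adjusted p = 0.0376). After GC correction both SPRY4 (adjusted p = 0.024) and SPRY1 (adjusted p = 0.027) passed.

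Other genes of the pathway, in 7 lists that hold 88 genes, were measured in the same fits and were called in both directions. In YT shYEATS2, where 20.7% of all tested genes were called, the lists ranged from 0 of 3 to 5 of 12 genes called. Of the 18 other ERK-induced genes 2 rose and 3 fell, and the list had a median log2 fold change of -0.17 against 1.31 for the 3 Sprouty genes. UPP1, a uridine phosphorylase, fell from 158 and 173 CPM to 31.5 and 31.95 (-2.38 ± 0.26), SPHK1, a sphingosine kinase, fell by 1.06 on the log2 scale, and PHLDA2 rose (2.14 ± 0.71) from 0.739 and 0.518 CPM to 2.37 and 3.82. Of the 7 other MAPK phosphatases 2 fell: DUSP9 went from 6.60 and 7.42 CPM to 1.21 and 0.929 (-2.61 ± 0.38) and DUSP2 from 9.08 and 11.3 to 2.04 and 2.37 (-2.16 ± 0.51). SPRY3, SPRED3 and ETV1, relatives of the members, were not called, at -0.09 to 0.74.

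The lowest adjusted p in the 7 lists in YT shYEATS2 belonged to another feedback inhibitor. IL17RD, also called SEF, which holds back ERK at the Golgi, rose from 16.6 and 16.05 CPM to 78.5 and 71.2 (2.19 ± 0.20, adjusted p = 5.83e-05). In the TC line it was at 33.65 and 38.1 CPM with shNT and at 54.3 and 79.4 with shYEATS2 (0.90 ± 0.20, adjusted p = 0.21). LRIG1, which promotes the turnover of ERBB receptors, rose from 22.6 and 22.95 CPM to 59.9 and 61.3 (1.41 ± 0.17), and DAB2IP, a RAS GTPase-activating protein, fell (-1.06 ± 0.21), so that 2 of 10 other inhibitors rose and 1 fell. In the core cascade 2 of 19 genes fell, the exchange factor SOS1 (-1.34 ± 0.35) and the phosphatase PTPN11 (-1.04 ± 0.32), and no kinase of the relay was called. Beside the counts of each list here, 20.7% of all tested genes were called in either direction in this comparison. Of 12 tested growth factor receptors 2 rose and 3 fell, with MET at 1.66 ± 0.27, ERBB3 at 1.18 ± 0.35 and FGFR4 at -2.10 ± 0.31. Of 14 tested ligands 2 rose and 2 fell, with PDGFC at 2.41 ± 0.52, FGF5 at 1.56 ± 0.39 and FGF1 at -1.41 ± 0.31.

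In YT shZZZ3, where 10% of all tested genes were called, the ERK-induced and ligand lists had calls only downwards. Of the 18 ERK-induced genes 3 fell: the zinc-finger factor EGR3 went from 1.53 and 2.82 CPM to 0.182 and 0.381 (-2.62 ± 0.56), UPP1 to 81.0 and 63.7 CPM (-1.19 ± 0.26), and FOS fell by 0.91 on the log2 scale. Of 14 ligands 3 fell: AREG, an EGFR ligand, from 1.003 and 1.84 CPM to 0.218 and 0.0846, EREG, another, from 2.69 and 2.82 to 0.473 and 0.93 (-1.86 ± 0.51), and PDGFA from 57.5 and 65.1 to 24.96 and 22.5 (-1.36 ± 0.27). AREG, EREG and EGR3 were thus low transcripts throughout. Among other inhibitors ERRFI1, which blocks the EGFR kinase, fell from 462 and 524 CPM to 212 and 226 (-1.17 ± 0.19), and LRIG1 rose (0.94 ± 0.17). PDGFRA rose (1.36 ± 0.37) and FGFR1 fell (-1.12 ± 0.19) of the 12 receptors, and NRAS fell (-0.87 ± 0.23) of the 19 core genes.

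**Figure D4:**
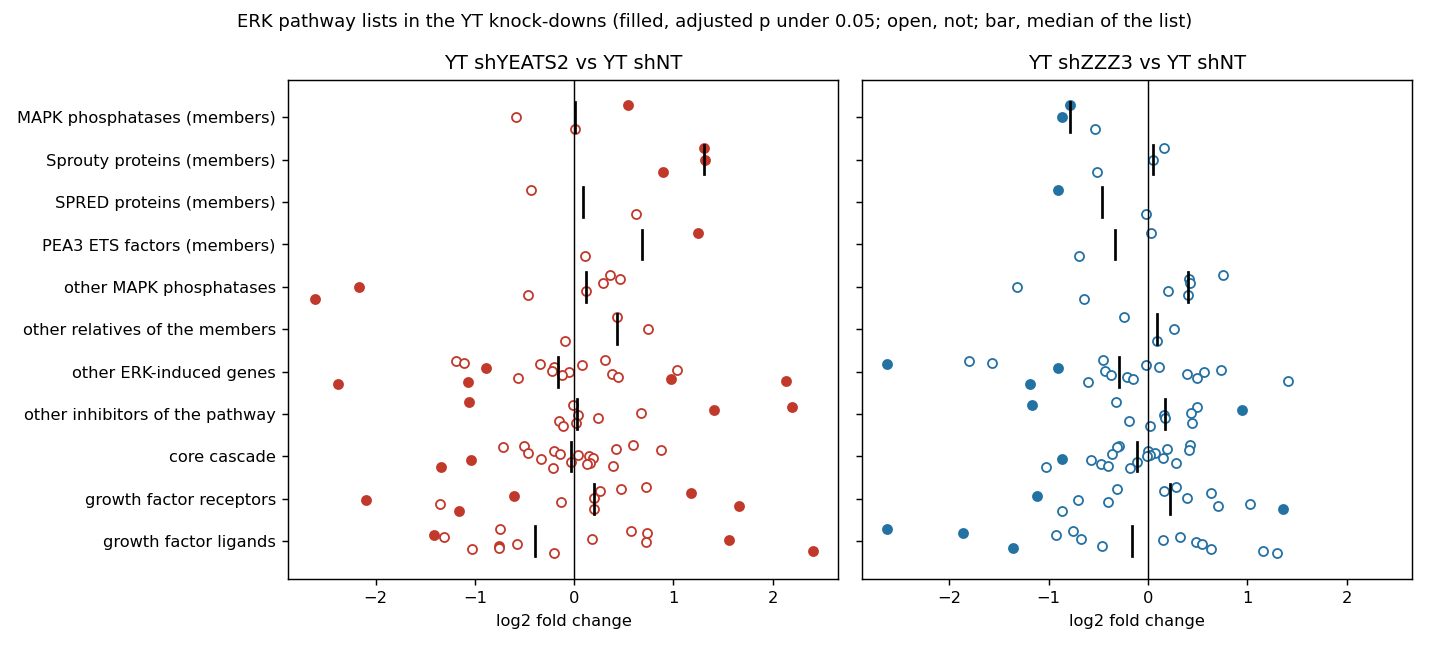
Log2 fold change (horizontal axis) of each tested gene of the 4 member groups and of 7 further lists of the ERK pathway in YT shYEATS2 and YT shZZZ3 against YT shNT; filled points passed an adjusted p of 0.05 in edgeR and bars are list medians. In YT shYEATS2 the 3 Sprouty genes lie together to the right of 0 with a median of 1.31. The 2 PEA3 ETS factors also lie to the right of 0, and the remaining lists spread over both sides.

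Between the lines with shNT, where 9.23% of all tested genes were called, 5 of the 18 other ERK-induced genes were higher in YT and none was called lower. EGR3 was at 0.114 and 0.239 CPM in TC shNT against 1.53 and 2.82, UPP1 at 27.2 and 17.5 against 158 and 173 (2.88 ± 0.26), and IER3 at 1.75 and 0.908 against 4.38 and 4.43 (1.65 ± 0.43). Of the 14 ligands 7 were higher in YT and 1 was lower, led by FGF5 (4.51 ± 0.62) with 0.267 and 0.191 CPM in TC shNT and 7.60 and 6.84 in YT shNT. EREG (2.40 ± 0.56) was also higher, and AREG was at 0 and 1 counts in TC shNT and at 19 and 32 counts in YT shNT. IL17RD was lower in YT (-1.13 ± 0.20) and ERRFI1 higher (1.05 ± 0.19), and PDGFRA was lower (-1.62 ± 0.37). In TC shZZZ3 the AP-1 component FOSL1 (1.48 ± 0.29), PHLDA1 (1.36 ± 0.16) and LRIG1 (1.005 ± 0.17) rose and IGF1 was lower, at 1.98 and 2.77 CPM in TC shNT against 0.0406 and 0.16, and in TC shYEATS2 no gene of the 7 lists was called in edgeR.

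Across the 12 libraries some pairs of the 10 members varied together and others did not. These are descriptions over libraries that share their groups and their differences in depth and GC content, and no p is given. Of the 45 pairs of members, 14 had a Pearson r of log2 CPM above 0.7, led by SPRY2 with SPRED2 (r = 0.94), SPRY1 with SPRY2 (0.90) and SPRY2 with SPRY4 (0.88). The share of all gene pairs above 0.7 is not given, so this count has no background beside it. DUSP4 varied with SPRY4 (0.79) and ETV5 (0.78). DUSP5 was only loosely tied to the Sprouty genes (0.16 with SPRY1 and 0.22 with SPRY2), and SPRED1 with ETV4, the lowest and the highest in GC content, had the lowest value (0.01).

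Among 13257 other genes that averaged 50 counts or more, the patterns most like that of SPRY4 were those of NR2F1-AS1 (r = 0.96), TNFRSF11B (0.93) and IRS1 (0.93). Those most like ETV5 were UCHL1 (0.98), TK2 (0.94) and FAM120AOS (0.92). For DUSP6 they were ARNTL, now called BMAL1 (0.90), WASHC3 (0.89) and ANKRD42 (0.88). None of the 9 was on the lists of the ERK pathway above.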

How the data were processed

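Raw counts per gene (whole numbers) were deposited by the authors for the 12 libraries, singly and in a combined table with 0 differing cells; no normalization or filter had been applied. Per the labels, stranded mRNA libraries were made with TruSeq chemistry and hg38 was the build. For its RNA sequencing the study's methods name HISAT2 alignment within bcbio-nextgen, and also Salmon, with tximport for counts per gene. Whether these counts came from either, and how strand and multiply mapped reads were counted, is not given in the sources used here. Libraries were grouped by the labels.

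Counts were normalised by TMM (factors 0.939 to 1.08), and genes averaging 5 counts or more over the 12 libraries were tested in edgeR 4.0.16 (R 4.3.3; robust quasi-likelihood fit of 6 groups, 6 residual degrees of freedom, prior count of 2, two-sided, Benjamini-Hochberg over 18415 genes, 11 contrasts). The common biological coefficient of variation was 0.205. DESeq2 1.42.0, other scalings, a GC correction (loess span 0.3 on exon GC content), a replicate block, no filter, the libraries of a contrast alone and each library left out were alternatives. The procedure was tested on simulated data. CPM per kb divides by the union of exons in GENCODE release 44, which held 99.1% of the gene IDs. ZZZ3 was found by its gene ID.

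The members and lists were chosen with earlier results of these data known. All 10 members are named in each comparison, and of each other list at most the 3 genes with the largest change among those called without overlap; the patterns most like a member are the 3 highest correlations. The GGAA count was added after the data were seen, as were the correlations with GC content.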

Additional observations from a re-analysis of the deposited data

Results flagged for a closer look

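For the feedback genes the effect of the YEATS2 hairpin differed between the fusions in a direct test for DUSP5 and SPRY1. The difference of effects (YT minus TC) was -1.42 for DUSP5 and 1.52 for SPRY1 on the log2 scale, with adjusted p of 0.0172 and 0.0213 in edgeR. With each library of the 4 groups left out in turn, DUSP5 ranged from -1.54 to -1.23 and was called in 4 of 8 fits, and SPRY1 ranged from 1.27 to 1.89 and was called in 3 of 8. The direction held in each of those fits. What lies behind the difference was not tested.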

How the results depend on the processing

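The 23 calls of the 10 genes over the 11 comparisons kept their direction in all 184 repeats with another scaling, filter, tool, block, GC correction or set of libraries, and 172 of these kept the call. None of the 12 lost calls belonged to SPRY1, SPRY2, SPRY4 or ETV4 in YT shYEATS2 against YT shNT. With 1 library left out at a time, 40 of 100 repeats kept the call and 60 lost it, with 0 turning sign. With 2 libraries a group, the lone library left is assumed to vary like the other groups. In YT shYEATS2 and YT shZZZ3 against YT shNT each such fit also called fewer genes over all. No scaling moved the median of all genes by more than 0.0803 log2 units. The cause of each change below was not tested.

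The number of genes called moved as follows. In TC shZZZ3 it was 1 (from 0) without the filter, in DESeq2 and with GC correction. These settings called 744, 532 and 678 (from 281) over all genes. In YT shZZZ3 it was 5 (from 3) with GC correction, which called 3802 (from 1846) over all genes. It was 0 in the 4 libraries alone, which called 1400 over all genes. Such a fit gave 8 (from 5) in YT shYEATS2, with 8784 (from 3821) over all genes. For YT against TC with shNT it gave 1 (from 3), with 994 (from 1699) over all genes. GC correction gave 7 (from 4) for YT against TC with shYEATS2, 4 (from 2) for the difference of YEATS2 effects and 3 (from 0) for that of ZZZ3 effects, which DESeq2 put at 2 and the fit without the filter at 1. Over all genes GC correction called 4504 (from 2242), 3705 (from 1725) and 1983 (from 795) in these comparisons. For the difference of ZZZ3 effects DESeq2 called 1274 over all genes and the fit without the filter 1549. Between the hairpins in TC the count was 2 (from 0) in DESeq2 and with GC correction and 1 without the filter. Over all genes these settings called 492, 664 and 751 (from 221). Leaving out a library also changed the number called over all genes, up in some fits and down in others. A changed member count in those fits is therefore not particular to the members. Leaving out a library gave 1 to 3 in YT shYEATS2 (1 without YT shNT replicate 1), 0 to 1 in YT shZZZ3 (0 without either YT shNT library), 1 to 3 for YT against TC with shNT and 1 to 5 with shYEATS2. It gave 0 to 3 for the difference of YEATS2 effects, 0 to 1 for that of ZZZ3 effects, 0 to 2 between the hairpins in TC and 1 to 5 in YT (1 without YT shYEATS2 replicate 2).

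Replicate numbers are shared between groups in the labels, but nothing says that they mark a batch. Deviations of same-numbered libraries correlated at -0.44 to 0.90 over 15 pairs of groups, so they were not taken as pairs. By this measure 10 of 12 libraries correlated best with their own number. The 2 libraries of a group deviate as mirror images, so that count does not rest on 12 separate observations. With a replicate block the count was 1 in TC shZZZ3 (SPRY1, adjusted p = 0.0443) and 1 between the hairpins in TC, and 6 in YT shYEATS2, 4 in YT shZZZ3, 4 and 6 for YT against TC with shNT and shYEATS2, and 3 and 0 for the differences of YEATS2 and ZZZ3 effects. With block and GC correction together it was 1 in TC shZZZ3, 5 in YT shZZZ3, 5, 7 and 1 for YT against TC with shNT, shYEATS2 and shZZZ3, 4 and 4 for the differences of effects and 3 between the hairpins in TC. Both of these settings also called more genes over all in every comparison.

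Values that changed sign were all uncalled. DUSP4 in TC shYEATS2 was at -0.019 without the filter, -0.054 with GC correction, -0.055 with the block added and -0.017 in the libraries alone. DUSP4 between the lines with shZZZ3 was at 0.0095 with GC correction and 0.010 with the block added. DUSP6 in YT shYEATS2 was at -0.043 with library totals only, and ETV4 between the lines with shNT at -0.025 without the filter. With GC correction, and with the block added, SPRED1 in YT shYEATS2 was at 0.030 and 0.021, its difference of YEATS2 effects at 0.17 and 0.16, and ETV4 in YT shZZZ3 at -0.087 and -0.085. SPRED2 in YT shZZZ3 was at 0.027 without the filter. Its difference of ZZZ3 effects was at 0.0014 with DESeq2 size factors, 0.036 with totals only, 0.071 without the filter, 0.0013 in DESeq2, 0.086 with GC correction, 0.073 with the block added and 0.035 in the libraries alone.

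Other signs turned when a library was left out. In TC shYEATS2 the ranges were -0.057 to 0.039 for DUSP4, -0.57 to 0.054 for SPRY1, -0.36 to 0.45 for SPRY2, -0.016 to 0.85 for SPRY4, -0.55 to 0.14 for SPRED1, -0.18 to 0.38 for SPRED2 and -0.0020 to 0.43 for ETV5. In TC shZZZ3 they were -0.061 to 0.43 for DUSP5, -0.022 to 0.33 for DUSP6, -0.63 to 0.050 for SPRED1, -0.15 to 0.096 for SPRED2, -0.12 to 0.56 for ETV4 and -0.32 to 0.12 for ETV5. In YT shYEATS2 they were -0.086 to 0.11 for DUSP6 and -0.012 to 0.25 for ETV5, and in YT shZZZ3 -0.14 to 0.16 for SPRED2 and -0.20 to 0.25 for ETV4. Between the lines they were -0.30 to 0.37 for ETV4 with shNT, and with shZZZ3 -0.18 to 0.060 for DUSP4, -0.37 to 0.13 for DUSP6 and -0.38 to 0.074 for ETV4. For the difference of YEATS2 effects they were -0.57 to 0.11 for SPRED1 and -0.31 to 0.13 for ETV5, and for ZZZ3 -0.00084 to 0.35 for SPRY4, -0.096 to 0.21 for SPRED2 and -0.51 to 0.17 for ETV4. Between the hairpins in TC they were -0.048 to 0.77 for SPRY2, -0.0058 to 0.19 for SPRED1 and -0.13 to 0.43 for SPRED2.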
